A study of Mus musculus with 2 samples.

Results

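This account concerns 109 mouse miRNA genes whose symbols carry the numbers 1892 to 3113, out of 1973 miRNA genes counted in small-RNA libraries of the embryonic neural tube. They were chosen by symbol alone, from genes annotated as miRNA, and Mir3071, Mir3072 and Mir3074 were left out by the rule. Numbers were given to miRNAs roughly in the order of their deposition, so these genes entered the catalogue late. Both libraries came from B6NCrl embryos at embryonic day 14.5, with no allele or treatment named, and make up 1 group. Replicate 1 was a pup of dam 1 and replicate 2 a pup of dam 2. The labels call each sample a single neural tube but also give its sex as pooled male and female, and which of these holds was not settled here.

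A miRNA gene is transcribed into a hairpin that the nuclease Drosha, with its partner DGCR8, trims in the nucleus and that Dicer then cuts to a duplex. One strand of the duplex is loaded into an Argonaute protein and pairs with messenger RNAs mainly through its seed, bases 2 to 8. Some hairpins reach Dicer without Drosha. In a mirtron the hairpin is a whole short intron, with both ends set by splicing. In a tailed mirtron only 1 end of the hairpin is a splice site. Other Dicer substrates come from transcripts that are not usual miRNA precursors, such as transfer RNAs.

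The sequences shown here carry the main findings. They are from RefSeq (GRCm38.p6), which held an entry for 98 of the 109 genes. The first is the hairpin of Mir1983, the most abundant gene of the set, with the bases that RefSeq annotates as the isoleucine tRNA gene n-TItat14 in capitals. Its mature miRNA is given next, with the bases that lie within the tRNA gene in capitals.
Mir1983 hairpin: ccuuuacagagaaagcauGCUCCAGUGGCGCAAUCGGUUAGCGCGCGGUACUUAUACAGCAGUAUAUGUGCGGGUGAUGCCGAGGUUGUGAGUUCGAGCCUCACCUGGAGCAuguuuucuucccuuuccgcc
miR-1983: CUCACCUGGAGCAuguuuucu

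Hairpins of 2 mirtron-type members are shown with the first and last 2 bases in capitals, because these are the 2 ends of the host intron. The hairpin of Mir3097 has only its last 2 bases in capitals, since only its 3′ end is an intron end.
Mir1981 hairpin: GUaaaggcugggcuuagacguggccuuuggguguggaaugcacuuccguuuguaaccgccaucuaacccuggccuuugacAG
Mir1982 hairpin: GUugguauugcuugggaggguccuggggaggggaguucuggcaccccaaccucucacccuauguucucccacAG
Mir3097 hairpin: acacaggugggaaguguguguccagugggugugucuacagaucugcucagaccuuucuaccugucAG

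Mature sequences follow with the seed in capitals. They are both arms of Mir3099, the second most abundant member, both arms of Mir3093, a neighbour of Mir9-1, the 5p arm of the mirtron-type Mir3102, and 2 arms of different members that share a seed.
miR-3099-5p: cCAGCUUCcuuccagcccuug
miR-3099-3p: uAGGCUAGagagagguugggga
miR-3093-5p: cGCACCCCgcggagcucacacu
miR-3093-3p: uGUGGACAccgugggagguugg
miR-3102-5p: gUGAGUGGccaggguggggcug
miR-3064-5p: uCUGGCUGuuguggugugcaaa
miR-3085-3p: uCUGGCUGcuauggcccccuc

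Depth set what could be seen. Sense-strand reads on miRNA genes numbered 3172235 in replicate 1 and 3671915 in replicate 2, and levels are counts per 1000000 of these reads (CPM), as mean ± SD over both libraries (n = 2). Detection needed 10 counts or more in both libraries, which is 3.15 CPM in replicate 1 and 2.72 CPM in replicate 2. A count of 0 allowed up to 0.946 and 0.817 CPM (the limit of 3 counts), for counting error only. Reads that fitted several positions, 32.4% and 33.3% of all reads, entered no gene count. Of 11 neural miRNA genes, 8 were detected and 0 were without a count, at a summed 22537 and 20209 CPM. The marker lists were chosen with earlier results of these data known, so they are no independent check of the tissue label. Markers of other cells were present too, with Mir126a of endothelium at 8443 and 17271 CPM, 4 mesenchymal genes at a summed 1197 and 4884 CPM and 3 sensory genes at 2109 and 15050 CPM. Leukocyte, red cell, muscle and liver lists each summed to between 35.9 and 168 CPM, with Mir133a-1 of muscle at 0. In bulk tissue, fewer cells of a type and less RNA per cell cannot be told apart.

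Of the 109 members, 23 were detected (21.1%), against 16.7% of all 1973 miRNA genes in the tables. Those 1973 include 843 genes with no number in their symbol, of which 3 were detected (0.356%), and 79 identifiers with no annotation match. The 843 lower the share over all genes, so it is no measure of the numbered genes alone. Another 6 reached 10 counts in 1 library only, 38 had fewer than 10 counts in each library without being at 0 in both, and 42 had no count. Together the members held 7236 counts in replicate 1 and 9194 in replicate 2, or 0.228% (exact 95% binomial interval 0.223 to 0.233) and 0.250% (0.245 to 0.256) of all miRNA counts. Their mean share was 0.239% ± 0.0158. The detected members had a median level of 10.4 CPM, whereas the 306 other detected genes had a median of 191 CPM. Only 2 members exceeded 100 CPM, and 188 other genes did.

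Detection differed between the number bands. Of the 55 genes from Mir1892 to Mir1971, 3 were detected and 34 stood at 0 in both libraries. The 47 genes from Mir3057 to Mir3113 held 17 detected genes and 5 with no count. Between these bands lay 7 genes, of which 3 were detected, Mir1981, Mir1982 and Mir1983. Among the 494 genes numbered below 1892, let-7 genes included, 285 (57.7%) were detected, against 15 of the 445 genes numbered above this range (3.37%). These are descriptions of the symbols' order, and no test was made.

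**Figure D1:**
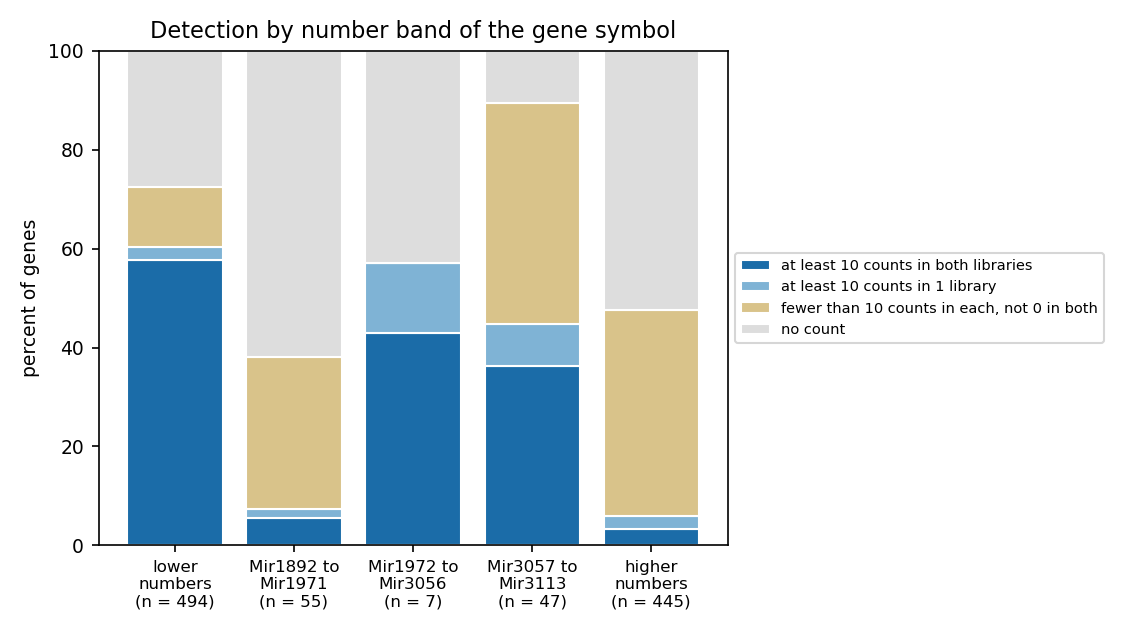
Percent of genes (y axis) in each number band of the gene symbol (x axis, with the number of genes), split by counts in the 2 libraries. Genes detected in both libraries make up 57.7% of the lower numbers, 3 of 55 genes from Mir1892 to Mir1971, 17 of 47 from Mir3057 to Mir3113, and 3.37% of the higher numbers.

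Mir1983 was the most abundant member, at 5482 counts in replicate 1 and 7070 in replicate 2. Its level was 1728 and 1925 CPM, a mean of 1827 ± 140, and it ranked 64 of 1973 genes. It made up 76.3% ± 0.805 of all member counts. The gene (ENSMUSG00000088148) lies at chromosome 13, 21896918 to 21897049 on the minus strand of GRCm38, outside any other GENCODE gene of its strand. It was the only detected member with no host gene. RefSeq places the tRNA gene n-TItat14 at 21896938 to 21897031, inside the hairpin, and no other member overlapped a tRNA or another small structured RNA gene of these annotations. Of the 21 bases of miR-1983, 13 are the last bases of the tRNA gene and 8 lie beyond it, in the stretch that a tRNA precursor loses as its 3′ trailer. The counts are given per gene, so they do not show which part of the hairpin the reads came from. Whether other tRNA genes hold the same bases was not analysed here, and reads that fitted several positions were not counted. miR-1983 shares its seed with miR-412-3p.

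Mir3099 followed at 834 and 968 counts. These were 263 and 264 CPM (263 ± 0.507), rank 144, or 11.0% ± 0.705 of member counts. Its position is chromosome 7, 6803587 to 6803670, within an intron of Usp29, which encodes a deubiquitinating enzyme and belongs to the paternally expressed Peg3 domain. That intron is 169340 bases long, and the hairpin stands 64641 bases from its 5′ end and 104615 from its 3′ end. Neither arm of miR-3099 shares its seed with another mouse miRNA in the RefSeq table used. After scaling, replicate 1 exceeded replicate 2 by 0.21 on the log2 scale (95% interval 0.07 to 0.34), and with scaling by total counts the difference was -0.0038.

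All other members together held 12.6% ± 0.0996 of the member counts. The next 5 lay between 22.4 and 31.6 CPM. Mir1981 had 95 and 122 counts, or 29.9 and 33.2 CPM. Mir3102 had 80 and 130 counts, or 25.2 and 35.4 CPM. Both are mirtron-type genes, described below. Mir3061, in an exon of Ppp2ca, the catalytic subunit of protein phosphatase 2A, had 71 and 104 counts (22.4 and 28.3 CPM). Mir3059, in an intron of the glycosyltransferase gene Mgat4c, had 93 and 76 counts (29.3 and 20.7 CPM). Mir3093 had 69 and 85 counts (21.8 and 23.1 CPM). In this group of 5 the exact 95% counting intervals of neighbours in the order overlapped, so the order of neighbours is not resolved.

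**Figure D2:**
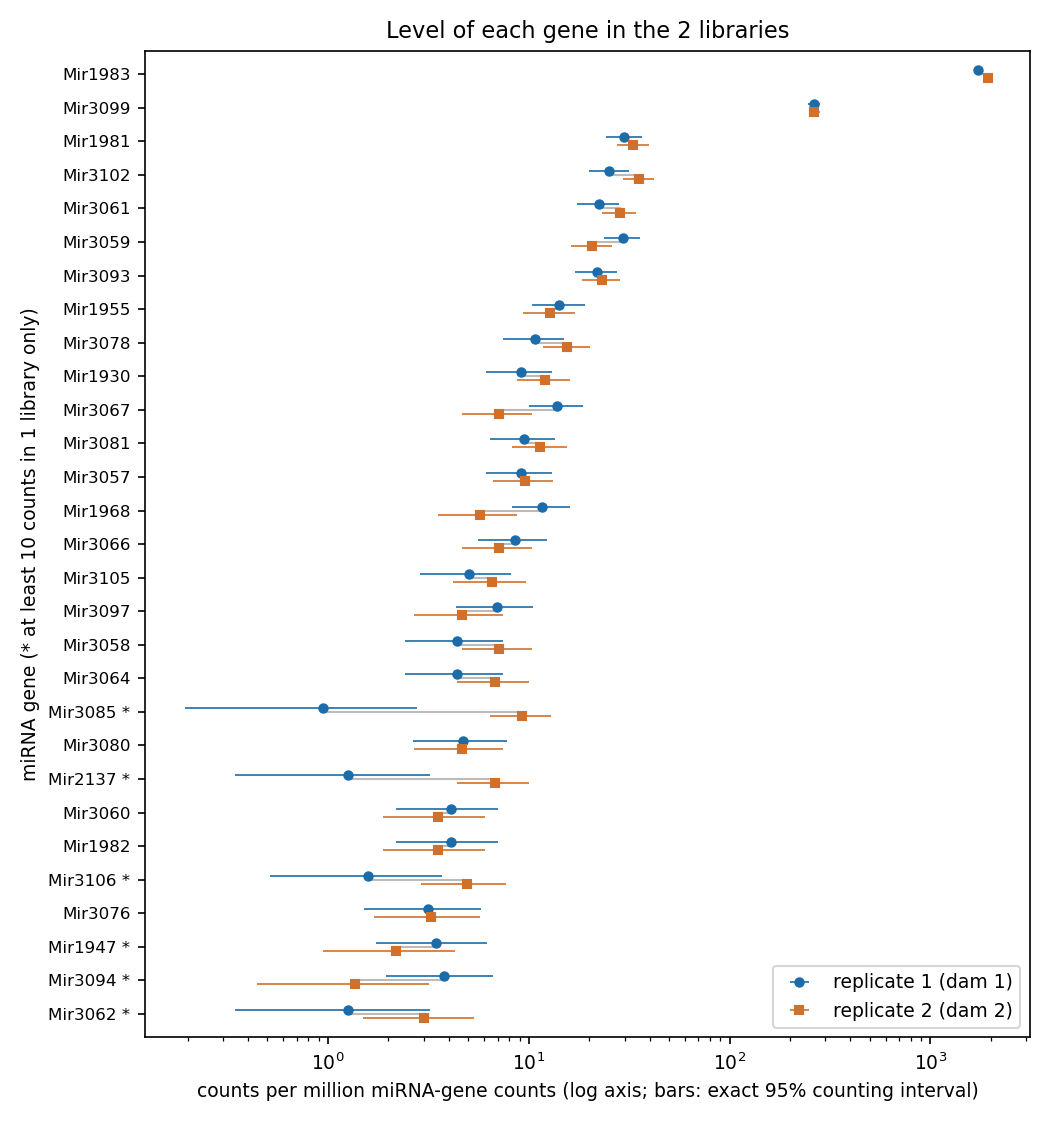
Level (x axis, CPM, log axis) of the 29 members that reached 10 counts in 1 library or both (y axis), with circles for replicate 1, squares for replicate 2 and exact 95% counting intervals. Mir1983 at 1827 CPM and Mir3099 at 263 CPM stand above all others, whose highest mean is 31.6 CPM.

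The position of the hairpin in its host marked several detected members. Of the 23 detected, 22 lay within another gene on the same strand, 20 of them in a protein-coding gene. Over all members 84 of 109 (77.1%) had such a host, and of the 306 other detected miRNA genes 69.0%. Hairpins of 6 detected members started or ended within 5 bases of an annotated intron end (26.1%), against 8 of the 86 members that were not detected (9.30%) and 9 of the 306 other detected miRNA genes (2.94%). Among other miRNA genes that were not detected the share was 12.7%, above that of the detected ones. These shares are descriptions with no test, and among genes with still higher numbers the share was 41.8%.

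In 3 members, all of them detected, the hairpin was exactly an annotated intron, with 0 bases between the hairpin and either splice site. Mir1981 is the 82-base intron of Marc2, which encodes a mitochondrial reductase, at chromosome 1, 184822407 to 184822488. Mir3102 is the 104-base intron of Arhgef17, which encodes a guanine nucleotide exchange factor, at chromosome 7, 100882306 to 100882409. Mir1982 is the 74-base intron of Oaz1, which encodes the antizyme that restrains polyamine synthesis, at chromosome 10, 80828797 to 80828870. Other transcripts of Arhgef17 and Oaz1 have exon sequence that overlaps these hairpins, in part or in full. Mir1982 was the lowest of the 3, at 13 counts in each library (4.10 and 3.54 CPM). In the sequences above, the hairpins of Mir1981 and Mir1982 begin with GU and end with AG, the letters of intron ends. These letters come with the position of the hairpins and are no separate finding. Over the RefSeq table used, 30 of 1005 hairpins begin with GU and end with AG. Mir1981 and Mir3102 have a 5p miRNA that starts on the first base of the intron, and the 3p miRNA of Mir1982 ends on the last. The seed of miR-3102-5p is also that of miR-702-5p.

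Another 11 members had only 1 end of the hairpin at an intron end, and 3 of these were detected. In each of the 3 it was the 3′ end. Mir3097, in Rgs12, a regulator of G-protein signalling, had 22 and 17 counts (6.94 and 4.63 CPM), and its hairpin begins 642 bases into an intron of 709 bases. Mir3064, in Ddx5, an RNA helicase that binds the Drosha complex, had 14 and 25 counts (4.41 and 6.81 CPM), with 671 bases before it in an intron of 737 bases. Mir3076, annotated as overlapping exon sequence of Tkt, which encodes transketolase, had 10 and 12 counts (3.15 and 3.27 CPM), with 903 bases before it in an intron of 962 bases. The annotated hairpins of Mir3064 and Mir3076 run 1 base past the intron end. Mir3094, in Nfx1, a zinc finger gene, ends on the last intron base too but had 12 and 5 counts. Of the 14 members beside an intron end, 8 have a 3p miRNA that ends on the last base of the intron. Each of the 8 ends in AG, the letters of that intron end, which come with this position. Of these 8 members, 3 were detected.

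**Figure D3:**
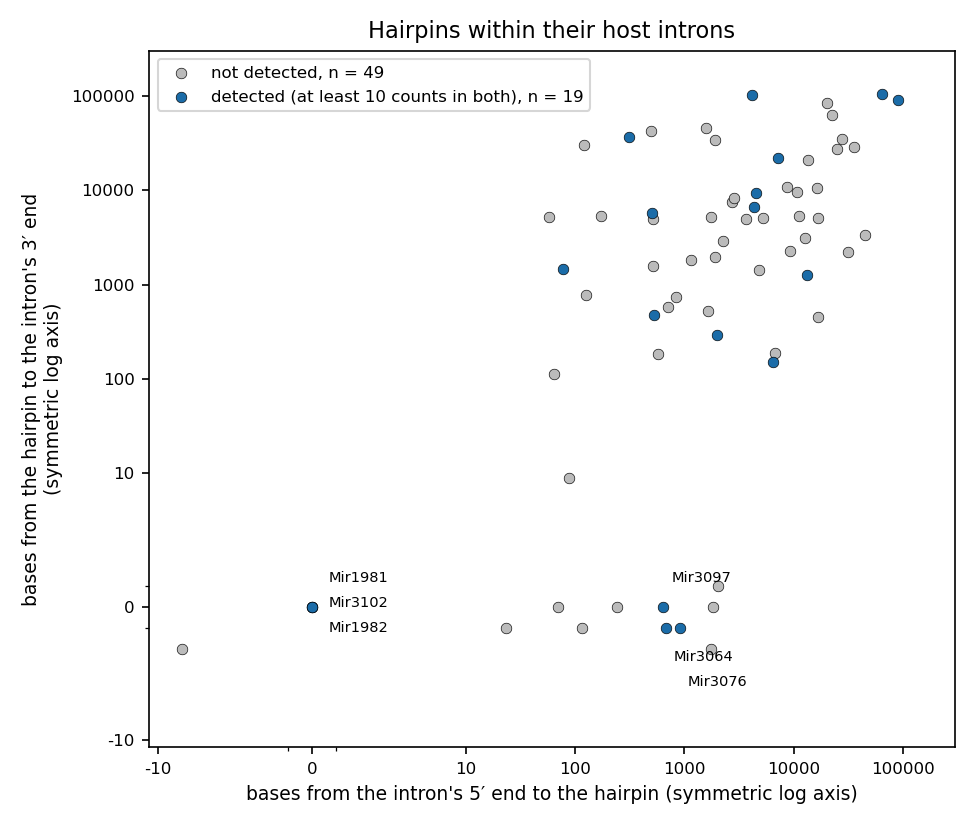
Distance from the 5′ end of the host intron to the hairpin (x axis) and from the hairpin to the intron's 3′ end (y axis), in bases on symmetric log axes, for 68 members placed against an intron. Mir1981, Mir3102 and Mir1982 lie at 0 on both axes, Mir3097, Mir3064 and Mir3076 within 1 base of 0 on the y axis, and the other 13 detected members further inside.

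Detected members Mir3093 and Mir3078 adjoin genes of the main neural miRNAs. The hairpin of Mir3093, at chromosome 3, 88215171 to 88215257, is within an intron of the long noncoding RNA Gm3764 and 341 bases from Mir9-1, a copy of the neural progenitor miRNA miR-9. No counted gene matched Mir9-1 in the annotation used, so its level could not be set beside that of Mir3093. Mir3078, at chromosome 14, 64591185 to 64591271, lies in an exon of Mir124a-1hg, 444 bases from Mir124a-1, a copy of the neuronal miRNA miR-124. Mir3078 had 34 and 57 counts (10.7 and 15.5 CPM), and Mir124a-1 had 21 and 23 counts in the same libraries. Mir124a-1 shares a stretch of 20 bases with other miRNA hairpins and Mir3078 shares none. The part of this in the counts was not tested. In all, 3 detected members had another miRNA gene within 10000 bases on their strand (13.0%), against 51.3% of the other detected miRNA genes. The third was Mir3064, whose neighbour Gm25994 had no count.

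Further members lay in introns of protein-coding genes. Mir3081, in an intron of Boc, a co-receptor for Sonic hedgehog, had 30 and 42 counts (9.46 and 11.4 CPM). Mir3105, in an intron of Shank2, a scaffold of excitatory synapses, had 16 and 24 counts (5.04 and 6.54 CPM). Mir1955, in an intron of Phf21a, a subunit of the LSD1 histone demethylase complex, had 45 and 47 counts (14.2 and 12.8 CPM). Mir3106, in an intron of Csmd1, a gene for a large membrane protein, had 5 and 18 counts and so reached 10 in replicate 2 alone. Mir1947, in an intron of Lmln and opposite Gm17106, reached 10 in replicate 1 alone, at 11 and 8 counts. These values concern the miRNA reads, and host transcripts were not measured.

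The other detected members lay in hosts of varied function. Mir1930, in Ube2g2, a ubiquitin-conjugating enzyme gene, had 29 and 44 counts. Mir3057, in an exon of the adaptor gene Apba3, had 29 and 35 counts, and Mir3066, in an intron of the nucleolar protein gene Nol10, had 27 and 26. Intronic members in Nudt4 (Mir3058), Tcf20 (Mir3080) and Rnf215 (Mir3060) stood at 5.75 ± 1.89, 4.68 ± 0.0699 and 3.82 ± 0.394 CPM. Of the 23 detected members 0 shared a stretch of 20 bases with another miRNA hairpin, against 11 of the 86 not detected and 79 of the 306 other detected genes (25.8%). A shared stretch can itself lower a gene's counts, because reads matching multiple places were left uncounted. The contrast of detected with undetected members is therefore not independent of the counting, and the size of this effect was not tested. Copies outside miRNA hairpins were not analysed here. Of the 43 mature sequences of detected members, 5 shared their seed with another mouse miRNA (11.6%), against 28.4% of the RefSeq table used. One of these is the seed common to miR-3064-5p and miR-3085-3p.

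How far the 2 libraries differed was the second question the design could address. Library sizes were scaled by TMM, the trimmed mean of M-values. An exact binomial test (two-sided) then set each gene's counts against these sizes, with Benjamini-Hochberg adjustment over the 360 genes that had 10 counts or more in at least 1 library. A gene was called with an adjusted p below 0.05 and at least a 2-fold difference. Since each dam gave 1 library, the test is of these libraries and not of litters, and it has no replicate check. Of the 29 members tested, 5 were called, against 37 of all 360 genes (10.3%). Ratios are replicate 1 over replicate 2. The members' median log2 ratio was 0.12, and that of all genes tested was -0.02. Summed over members the log2 ratio was 0.08 (95% interval 0.03 to 0.12), which became -0.13 with scaling by total counts, a choice that moved all ratios by 0.21.

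Counts were higher in replicate 2 for 2 called members, against 6.39% of all genes tested. Mir3085, which lies outside any host gene at chromosome 19, 42280082 to 42280170, had 3 counts in replicate 1 and 34 in replicate 2 (0.946 and 9.26 CPM). Its log2 ratio was -2.88 (95% interval -5.43 to -1.41, exact binomial test, adjusted p = 1.70e-05). Mir2137, in an intron of Zfp185 on the X chromosome, had 4 and 25 counts (1.26 and 6.81 CPM), with a log2 ratio of -2.08 (95% interval -4.20 to -0.69, adjusted p = 0.00263). In CPM, sensory, mesenchymal, endothelial, leukocyte, red cell and muscle markers were higher in the same library. Neural and liver markers were lower there. The part of these markers in the differences of Mir3085 and Mir2137 was not tested. Mir3064, whose 5p arm has the seed of miR-3085-3p, had a log2 ratio of -0.39 (95% interval -1.47 to 0.59) and was not called.

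Replicate 1 was the higher library for 3 called members, against 3.89% of all genes tested. Mir3067, in an intron of Smoc1, a gene for a secreted matrix protein, had 44 and 26 counts (13.9 and 7.08 CPM), a log2 ratio of 1.17 (95% interval 0.45 to 1.94, exact binomial test, adjusted p = 0.00217). Mir1968, in an intron of Grtp1, had 37 and 21 counts (11.7 and 5.72 CPM), a log2 ratio of 1.23 (95% interval 0.43 to 2.09, adjusted p = 0.00298). Mir3094, at 12 and 5 counts, had a log2 ratio of 1.61 (95% interval 0.08 to 3.54, adjusted p = 0.0461). With scaling by total counts Mir3067, at 0.96, and Mir3094, at 1.40 with an adjusted p of 0.0814, were no longer called, and Mir3106 was, at -1.54. With scaling by DESeq2 size factors Mir3094 was not called either, at an adjusted p of 0.0511.

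Each of these calls rested on few reads. All 5 called members had fewer than 100 counts over both libraries, and of the 7 members with at least 100 none was called at the 2-fold minimum. With a 1.5-fold minimum Mir3059, at 93 and 76 counts, was called as well (adjusted p = 0.00306 in the exact binomial test), making 6 members of 29 and 71 of 360 genes. edgeR's exact test was also run with a common dispersion (coefficient of variation 0.303). That dispersion was estimated from the same 2 libraries, so their differences count as spread and fewer calls are built into it. With it 0 of 29 members and 7 of 360 genes were called, and 2 members had an unadjusted p below 0.05. Among the most abundant members, Mir1983 had a log2 ratio of 0.06 (95% interval 0.01 to 0.11), turning to -0.16 with scaling by total counts. Mir3059 was the member with at least 100 counts that leaned most to replicate 1, at 0.71 (95% interval 0.26 to 1.17), and Mir3102 leaned most to replicate 2, at -0.27 (95% interval -0.70 to 0.14). Of the 23 detected members 21 lay within 2-fold, and of all 329 detected genes 301 did.

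**Figure D4:**
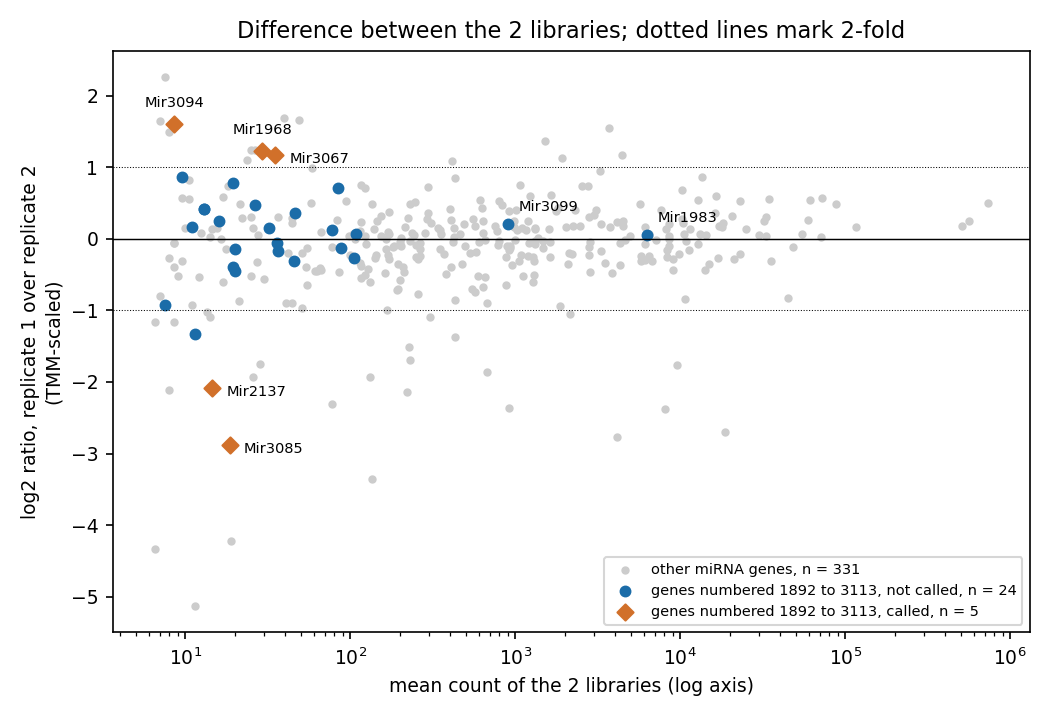
Log2 ratio between the libraries (replicate 1 over replicate 2) after TMM scaling (y axis) against the mean count of the 2 libraries (x axis, log axis) for 360 genes, with the 29 members in colour and the 5 called ones as diamonds. The called members lie at low counts, while Mir1983 and Mir3099 lie at 0.06 and 0.21.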

How the data were processed

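MicroRNA-seq of 2 neural tube libraries was used. Values deposited by the authors are unnormalized read counts for each gene on either strand, the sense strand and the other strand, and the deposited text notes name the assembly mm10 and annotation M4. Details of alignment and trimming were not given in the sources used here. The 4 rows that name no gene (unmapped 11.5% and 11.8% of reads, several positions 32.4% and 33.3%, no gene 2.75% and 3.01%, ambiguous 0%) stayed out of totals and tests.

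Sense counts were used. Symbols, hosts and introns came from GENCODE M21 (GRCm38, the assembly of mm10) by Ensembl identifier without version, matching 1894 of 1973. Sequences and tRNA genes came from RefSeq. Symbols with an entry on chromosome 18 were left out of the sequence table before entries and seeds were counted. A hairpin was set against the introns of all transcripts of same-strand hosts, within 5 bases. Genes with 10 counts or more in at least 1 library were scaled by TMM in edgeR 4.0.16 (R 4.3.3), with a prior count of 0.5 in log2 ratios, and compared by an exact binomial test (scipy 1.17.1). With 1 group of 2 libraries, neither edgeR's quasi-likelihood test nor a DESeq2 fit had residual degrees of freedom, so p-values cover counting error between libraries. Alternatives used total counts, DESeq2 1.42.0 size factors, other filters, a 1.5-fold minimum, either-strand counts and edgeR's exact test with a common dispersion. Reads without molecular identifiers are not independent molecules, so intervals cover counting error only. The test was run first on simulated counts with planted changes. Hairpin folding energies came from ViennaRNA 2.7.2.

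Members and lists were chosen with earlier results of these data known. Genes named were detected members (at most 30), called members, the 5 highest and 5 lowest ratios among those with at least 100 counts, and up to 5 members with 10 counts in 1 library only.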

Additional observations from a re-analysis of the deposited data

How the results depend on the processing

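The number of detected members, 23, was 15 with a minimum of 20 counts and 48 with at least 1 count in both libraries, and lay between 25 and 27 with either library left out. The share of 0.239% was 0.305% with Mir10b out of the total and 0.0566% without Mir1983, and 0.228% to 0.250% with 1 library. Detected members with a host, 22, were 14 at a minimum of 20 counts. No member was called, against 5, when genes needed 100 counts over both libraries (20 of 282 genes called). That filter left out all 5 before the test, so it does not check their calls. With edgeR's exact test and a common dispersion from the same 2 libraries, no member was called either. Of all 360 genes 37 were called, against 71 with a 1.5-fold minimum and 7 with the common dispersion. The summed log2 ratio of 0.08 was 0.0285 with DESeq2 size factors, 0.15 without Mir1983 and -0.13 with scaling by total counts, which also turned Mir1983 (-0.16), Mir3099 (-0.0038), Mir1981 (-0.15), Mir3093 (-0.0879), Mir3057 (-0.0561) and Mir3076 (-0.0405) below 0. None of these 6 genes reached 2-fold or was called under either scaling, and the cause of the turn is the shift of all ratios by the scaling. In the exact binomial test, Mir1983 had an adjusted p of 0.0509 with TMM and 5.47e-09 with total counts. Mir3099 had 0.00489 with TMM and 0.988 with total counts. The number beside a splice site, 6, was 7 with a minimum of 5 counts or either library left out, and 6 within 2 or 20 bases. A minimum of 20 counts was not tried for it. Mir3097, Mir3064, Mir1982 and Mir3076 each had fewer than 20 counts in at least 1 library and would not pass it. A comparison of libraries cannot be made with 1 left out. No paired analysis was possible because the series has 1 group. At these depths, levels under about 1 CPM cannot be told from 0.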

Other observations

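The undetected members described here fall outside the naming rule and were picked with their values in view. Mir1912, in an intron of the serotonin receptor gene Htr2c, had 0 and 1 counts, whereas its neighbour Mir1264, 1074 bases away, had 130 and 103. Mir3070a, on chromosome 12 beside its copy Mir3070b, had 4 and 6 counts, and Mir3070b had 1 and 0. Both copies share 20 bases, so reads that fitted each of them were not counted. Mir1906-1, in an exon of the imprinted noncoding RNA Meg3, had no count in either library, and it shares 20 bases with Mir1906-2.

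The median hairpin of the 23 detected members was 84 bases long with 54.4% G and C and a predicted folding energy of -0.446 kcal/mol per base. The 86 undetected members had medians of 83 bases, 52.9% and -0.443 kcal/mol per base. Other detected miRNA genes had medians of 85 bases, 49.4% and -0.434 kcal/mol per base. Reads on the opposite strand of member genes numbered 2 in each library, under the limit of 3 counts.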
